A study of Homo sapiens with 7 samples.

Results

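The replication-dependent histone genes encode the canonical H1, H2A, H2B, H3 and H4 proteins that package newly made DNA. They were taken by symbol from RefSeq genes on GRCh38.p14 as the protein-coding genes named H1-1 to H1-6 or carrying a numbered H2AC, H2BC, H3C or H4C symbol. This gave 70 of 19974 protein-coding genes on chromosomes 1 to 22 and X, without use of any measured value. Of these genes, 6 encode H1, 17 H2A, 19 H2B, 13 H3 and 15 H4. Chromosome 6 holds 55 of them, chromosome 1 holds 13, and H4C16 and H2BC12L lie alone on chromosomes 12 and 21.

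The values were peak lists from chromatin immunoprecipitation sequencing (ChIP-seq) with the antibody 6D7 against threonine 4 phosphorylation (pThr4) of the RNA polymerase II C-terminal domain (CTD). The chromatin came from HEK293, an established human embryonic kidney epithelial cell line, and its lysate was treated in vitro with the CTD phosphatase SCP1 before immunoprecipitation. Active SCP1 (wild type, 3 biological replicates) was compared with the catalytically inactive SCP1 D96A (3 biological replicates), and both groups shared the same cells, fixation and antibody. The comparison asks where pThr4 is hidden from the antibody by phosphorylated serine 5 (pSer5) next to it, which active SCP1 removes. The IgG control was not analysed here, and the cell cycle stage of the cells is not given in the sources used here.

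Replication-dependent histone genes are short, mostly without introns, and transcribed mainly in S phase from clusters that gather at the nuclear bodies known as histone locus bodies. Their mRNAs end in a stem-loop and not in a poly(A) tail. The stem-loop binding protein SLBP and the U7 small nuclear ribonucleoprotein position the cut, and the endonuclease CPSF3 makes it. Phosphorylation of threonine 4 of the CTD has been linked to this 3′-end processing in vertebrate cells, which is why these genes are of interest for a pThr4 antibody.

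These genes are compact next to the rest of the coding genome. Their annotated lengths ran from 386 to 29682 bp with a median of 494 bp, against a median of 24170 bp over all protein-coding genes, and 62 were at most 1000 bp long. Many share surroundings, so that the windows of gene plus 1000 bp on either side merged into 40 loci, 18 of them with a single gene. A peak in 1 window therefore often counts for several genes.

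The promoters carry the sequence marks known for this family. In the RefSeq promoter table, 64 of the 70 genes had an entry, and the 250 bases before the start were searched on both strands for TATAAA (the TATA box), CCAAT (the CCAAT box) and ATTTGCAT (the octamer, bound by POU2F1). TATAAA was found in 42 of 64 (65.6%), against 9.36% of 15813 protein-coding promoters. CCAAT was found in 54 of 64 (84.4%), against 34.4%. The octamer was found in 26 of 64 (40.6%), against 1.67%. The classes differed in these motifs. CCAAT was present in every H1, H2A, H2B and H3 promoter with an entry but in 3 of 13 H4 promoters, and the octamer was present in 14 of 18 H2B and 11 of 16 H2A promoters, in 1 of 11 H3 promoters and in no H1 or H4 promoter. H3C4 and H2AC7 share an annotated start in the table, so the same 250 bases count for both. A match is a run of letters and not a measured binding site.

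The promoters printed here are those of 3 genes that had a peak in 1 library, H2AC20, H2BC5 and H4C6, and of the pair H4C14 and H4C15. They are given 5′ to 3′ on the strand of the gene (GRCh38.p14, from RefSeq), with capitals marking every match of the 3 motifs on either strand. The H2AC20 sequence (chr1:149886668-149886917, plus strand) spans the stretch up to the start of H2BC21, which is transcribed the other way. H2BC5 is at chr6:26157871-26158120 (plus strand), H4C6 at chr6:26240143-26240392 (plus strand), H4C14 at chr1:149832407-149832656 (plus strand) and H4C15 at chr1:149861160-149861409 (minus strand).
H2AC20: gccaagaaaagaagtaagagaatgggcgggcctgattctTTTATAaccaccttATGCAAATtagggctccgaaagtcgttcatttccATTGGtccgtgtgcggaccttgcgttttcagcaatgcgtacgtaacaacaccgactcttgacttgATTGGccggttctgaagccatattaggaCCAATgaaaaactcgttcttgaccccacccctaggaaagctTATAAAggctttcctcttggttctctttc
H2BC5: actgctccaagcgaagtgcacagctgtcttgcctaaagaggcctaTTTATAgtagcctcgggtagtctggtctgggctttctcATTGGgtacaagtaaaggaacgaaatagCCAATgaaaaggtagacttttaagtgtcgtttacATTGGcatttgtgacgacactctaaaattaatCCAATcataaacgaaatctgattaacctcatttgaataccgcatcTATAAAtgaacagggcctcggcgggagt
H4C6: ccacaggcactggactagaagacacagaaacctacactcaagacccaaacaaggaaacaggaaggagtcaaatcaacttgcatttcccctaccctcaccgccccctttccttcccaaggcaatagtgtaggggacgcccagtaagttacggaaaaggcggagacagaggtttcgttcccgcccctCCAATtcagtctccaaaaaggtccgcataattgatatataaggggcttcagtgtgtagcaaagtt
H4C14: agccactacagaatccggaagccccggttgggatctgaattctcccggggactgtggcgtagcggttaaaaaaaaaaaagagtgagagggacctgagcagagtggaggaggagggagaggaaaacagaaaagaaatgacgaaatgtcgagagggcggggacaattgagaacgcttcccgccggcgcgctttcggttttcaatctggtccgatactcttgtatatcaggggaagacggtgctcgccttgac
H4C15: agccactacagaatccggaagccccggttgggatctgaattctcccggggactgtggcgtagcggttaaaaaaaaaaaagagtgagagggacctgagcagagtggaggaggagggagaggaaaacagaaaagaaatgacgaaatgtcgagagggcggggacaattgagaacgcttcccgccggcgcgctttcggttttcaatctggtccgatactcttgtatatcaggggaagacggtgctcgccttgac

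H2AC20 carries all 3 motifs, H2BC5 carries TATAAA and CCAAT, and H4C6 carries CCAAT alone. The H4C14 and H4C15 sequences hold none of the 3 and are identical at 100% of their positions, so a read inside them cannot be placed at one gene or the other. The next closest pairs were H4C11 and H4C12, with 98.0% identity, and H2AC13 and H2AC14, with 82.0%. Over transcripts of GENCODE release 44, in which 65 of the 70 genes were matched, 12 genes shared at least 1 stretch of 150 bases exactly with another histone gene. In 9 of them, H3C14, H3C15, H4C14, H4C15, H2AC13, H2AC14, H4C11, H4C12 and H2AC17, at least 50% of such stretches were shared. Stretches were compared by gene name and not by position, so overlapping transcripts of neighbouring genes count as shared although the place is the same. H3C12, another of the 12, has transcripts that reach beyond the gene, and H2AC17 is its neighbour. Whether the shared stretches of H3C12 and H2AC17 have several places in the genome was not tested. How reads with several places in the genome were treated is not given in the sources used here, and the part of this in the absence of peaks was not tested. The other matched genes shared no stretch of that length.

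The 6 lists differed in length and in the weakest peak they admitted. With active SCP1 they held 12625, 6680 and 36892 peaks in replicates 1, 2 and 3, with a lowest −log10 p-value of 3.50, 3.79 and 3.08. With inactive SCP1 they held 2466, 1163 and 2699 peaks, with a lowest −log10 p-value of 4.23, 4.60 and 4.20. Active replicate 3 stood apart as the longest list and the one that reached the weakest peaks. Its run name, like that of inactive replicate 3, carries another number than those of replicates 1 and 2 and lacks their word broad. What these parts of the names stand for is not given in the sources used here. Their part in the length of the lists was not tested. A missing peak means that nothing at the gene was strong enough for that list, which is not a measured level of 0. The lists hold no read counts, so the depth is unknown.

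Histone genes were almost without listed pThr4 peaks. Within the gene plus 1000 bp on either side, 0, 0 and 9 of the 70 genes had a peak in active replicates 1, 2 and 3, and 0, 0 and 0 had one in inactive replicates 1, 2 and 3. The groups overlapped, since 2 of 3 active lists were at 0 like every inactive list. All 9 genes came from active replicate 3, so that 61 of 70 genes (87.1%) had no peak in any list, and without that library none had one. No peak in any list was found for 39.6% of all protein-coding genes and for 70.2% of 1842 other protein-coding genes of at most 3000 bp. In the same windows 34.0%, 23.2% and 58.3% of all protein-coding genes had a peak after treatment with active SCP1, and 11.6%, 5.75% and 12.4% after inactive SCP1.

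No histone gene had a peak in all 3 active lists and in no inactive list, a pattern that 7.38% of all protein-coding genes showed. None had a peak in all 6 lists, against 4.86% of all protein-coding genes, so no fold enrichment could be compared between the groups at any histone gene. A peak in at least 1 inactive list was found at 0 of 70 histone genes, against 15.6% of all protein-coding genes. A peak in at least 1 active and in no inactive list was found at 9 of 70 (12.9%), against 44.8%. Each of these 4 shares was below that of all protein-coding genes. For the last of them, the histone share rests on active replicate 3 alone, where 23.3% of all protein-coding genes had their sole peak. Among other genes of at most 3000 bp this share was 13.7%, close to that of the histone genes.

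Short windows meet fewer peaks, so other short genes were set beside them. Of 1842 other protein-coding genes of at most 3000 bp, 14.9%, 11.5% and 29.0% had a peak in active replicates 1, 2 and 3, and 7.71%, 3.85% and 7.71% in inactive replicates 1, 2 and 3. A peak in all 6 lists was found at 67 of them (3.64%) and one in each active list without any in the inactive lists at 42 (2.28%). The histone share was lower in each of the 6 lists than that of the short genes. The short genes reach up to 3000 bp, against a histone median of 494 bp, and were not matched to the histone genes in length. Counted by bases, peaks covered 4.37 of 214 kb of histone windows (2.04%) in active replicate 3 and 0 kb in the other 5 lists. Peaks covered 1.05%, 0.537% and 2.71% of the windows of all protein-coding genes in the active lists, and 0.17%, 0.0758% and 0.185% in the inactive lists. The difference per base in active replicate 3 was thus smaller than the difference per gene.

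**Figure D1:**
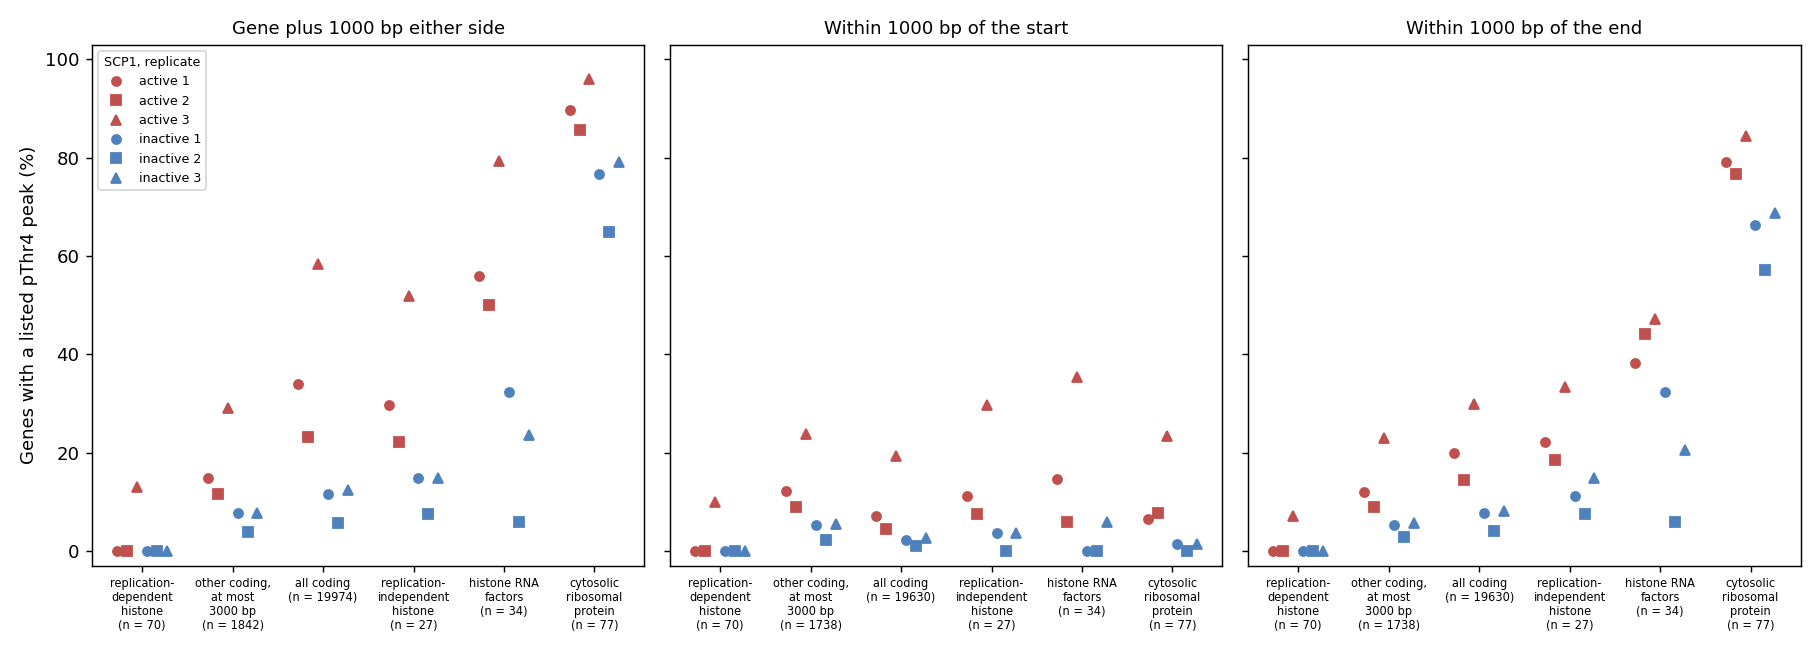
Percentage of genes with a listed pThr4 peak in the gene plus 1000 bp on either side (left), within 1000 bp of the start (middle) and within 1000 bp of the end (right), with 1 point for each of 6 libraries (red, active SCP1; blue, inactive SCP1; circle, square and triangle, replicates 1, 2 and 3). Replication-dependent histone genes lie at 0% in 5 libraries and at 12.9%, 10.0% and 7.14% in active replicate 3, while cytosolic ribosomal protein genes lie above 50% in every library for the gene and for its end.

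Position along the gene gave the same picture. At the start (within 1000 bp), 7 of 70 histone genes (10.0%) had a peak in active replicate 3 and 0 in the other 5 lists. Of all protein-coding genes with a strand, 7.04%, 4.47% and 19.2% had one in active replicates 1, 2 and 3. The shares were 2.3%, 0.902% and 2.56% in inactive replicates 1, 2 and 3, at which few of 70 genes would have one. At the end (within 1000 bp), where the stem-loop mRNA is cut, 5 of 70 histone genes (7.14%) had a peak in active replicate 3 and 0 in the other 5 lists. Of the 19630 protein-coding genes with a strand, 3922, 2852 and 5863 had a peak in the end window in active replicates 1, 2 and 3 (14.5% to 29.9%), and 7.65%, 3.97% and 8.12% had one in inactive replicates 1, 2 and 3. Other genes of at most 3000 bp with a strand, the set closest in length, had 210, 154 and 413 starts and 206, 154 and 400 ends with a peak in active replicates 1, 2 and 3. The end thus had a peak more often than the start over all coding genes, while the short genes had about equal numbers in the active lists and the histone genes had 7 starts and 5 ends. In most histone genes the windows around start and end overlap, because the gene is shorter than 1000 bp, so the same peak can count for both.

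By histone class, active replicate 3 had a peak at 0 of 6 H1 linker genes, 3 of 17 H2A, 3 of 19 H2B, 2 of 13 H3 and 1 of 15 H4 core histone genes. The testis forms H1-6, H2AC1 and H2BC1 were among the genes without a peak in any list. Of the 8 genes over 1000 bp long, 4 had a peak (H2BC21, H2BC5, H3C4 and H2BC12), and of the 62 shorter genes 5 had one. The 9 genes are named below after their values were seen, because the rule set for naming, a peak in at least 5 of 6 lists or in every active and no inactive list, selected none.

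The 9 genes were reached by 6 peaks, all in the list of active replicate 3. Their fold enrichments, the ratio over background that the authors' caller gave each peak, ran from 2.72 to 3.31, against a median of 3.11 over all peaks of that list. Their −log10 p-values ran from 3.18 to 4.28, and the highest −log10 q-value was 1.81. They ranked 10702 to 34886 of 36892 by −log10 p-value, so the strongest exceeded 71.0% of the list and the weakest 5.44%. None reached a −log10 q-value of 2.

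The strongest peak lay at H3C12, which encodes a canonical H3 (gene ID 8356, chr6:27890315-27890826, minus strand). It ran from 27890353 to 27891046 (694 bp, fold enrichment 3.31, −log10 p-value 4.28), from 220 bp before the start to 473 bp into the gene, and covered 92.6% of it. It was the single histone peak that reached over a gene start. In the H3C12 transcripts, 27.8% of the stretches of 150 bases and 36.7% of those of 50 bases occur exactly under another histone gene name. These transcripts held 809 distinct stretches of 50 bases, more than the 512 bp of the gene can hold. They therefore reach beyond the gene as annotated here. Whether the shared stretches lie under the peak, or at several places in the genome, was not tested. H4C6 had no matched transcript, and the other 7 genes with a peak shared no stretch of 150 bases. The −log10 p-value of the H3C12 peak was above the lowest value listed in 2 of 3 inactive libraries, replicates 1 and 3. It was also above the lowest in active replicates 1 and 2, yet none of those lists held the peak.

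The peak on chromosome 1 counted for 3 genes. It ran from 149887002 to 149887279 (278 bp, fold enrichment 3.16, −log10 p-value 4.14) inside H2AC20 (gene ID 8338, chr1:149886918-149887411, plus strand), 84 to 361 bp past the gene start, and covered 56.3% of the gene. It lay outside the promoter printed above. H2BC21 (gene ID 8349, chr1:149884459-149886682, minus strand), the divergent H2B gene, was counted because its start lay 320 bp from the peak. H2AC21 (gene ID 317772, chr1:149887469-149887965, minus strand) was counted because the peak lay beyond its end. The 3 genes thus held 1 signal, and the peak overlapped none but H2AC20.

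At H3C4 (gene ID 8351, chr6:26196784-26199293, minus strand) a peak of 1060 bp ran from 26196124 to 26197183 (fold enrichment 3.07, −log10 p-value 3.76) over the annotated end and covered 400 bp of the gene. The annotated H3C4 record contains the whole of H2AC7, whose own window did not meet the peak. At H2BC5 (gene ID 3017, chr6:26158121-26171349, plus strand) the widest of the 6 peaks, 1200 bp from 26161595 to 26162794 (fold enrichment 3.00, −log10 p-value 3.62), lay 3474 to 4673 bp past the start. It also overlapped the antisense transcript H2BC6-AS1. Both are long annotated records, and at H2BC5 the peak lay well away from the start. At H3C4 the start of the record is also that of H2AC7. The matched H3C4 transcripts held 454 distinct stretches of 50 bases, far fewer than the record of 2510 bp could hold. How far the peak lay from the start of those transcripts was not measured.

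The remaining peaks were the weakest. A peak of 841 bp from 27147171 to 27148011 on chromosome 6 (fold enrichment 2.72, −log10 p-value 3.22) began 65 bp into H2AC12 (gene ID 85235, chr6:27147106-27147562, plus strand), covered 85.8% of it and ran over its end. It lay upstream of H2BC12 (gene ID 85236, chr6:27138293-27146858, minus strand), 313 bp from the start, and the microRNA gene MIR3143 also lay under it. A peak of 296 bp from 26239455 to 26239750 (fold enrichment 2.81, −log10 p-value 3.18) lay 938 to 643 bp upstream of H4C6 (gene ID 8361, chr6:26240393-26240793, plus strand), outside the promoter printed above and over no annotated gene.

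Set against the weakest peak that each other list admitted, 4 of the 6 peaks were at or above that of active replicate 1 and 2 (at H3C12 and H2AC20) at or above that of active replicate 2. The H3C12 peak was at or above that of inactive replicates 1 and 3, and no histone peak reached that of inactive replicate 2. For 5 of the 6 peaks, a peak as strong as in active replicate 3 would have been too weak to enter any inactive list. The absence of those 5 from the inactive lists is therefore no measure of lower pThr4. A common cutoff gives every list the same p-value limit. The depth is unknown, so it cannot be said to make the lists equally sensitive. When every list was limited to peaks whose −log10 p-value reached 6, 0 histone genes had a peak in any library, as follows from the highest value of 4.28. At that cutoff 10.2%, 7.65% and 13.0% of all protein-coding genes had a peak with active SCP1 (replicates 1, 2 and 3), and 5.17%, 3.20% and 5.28% with inactive SCP1.

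**Figure D2:**
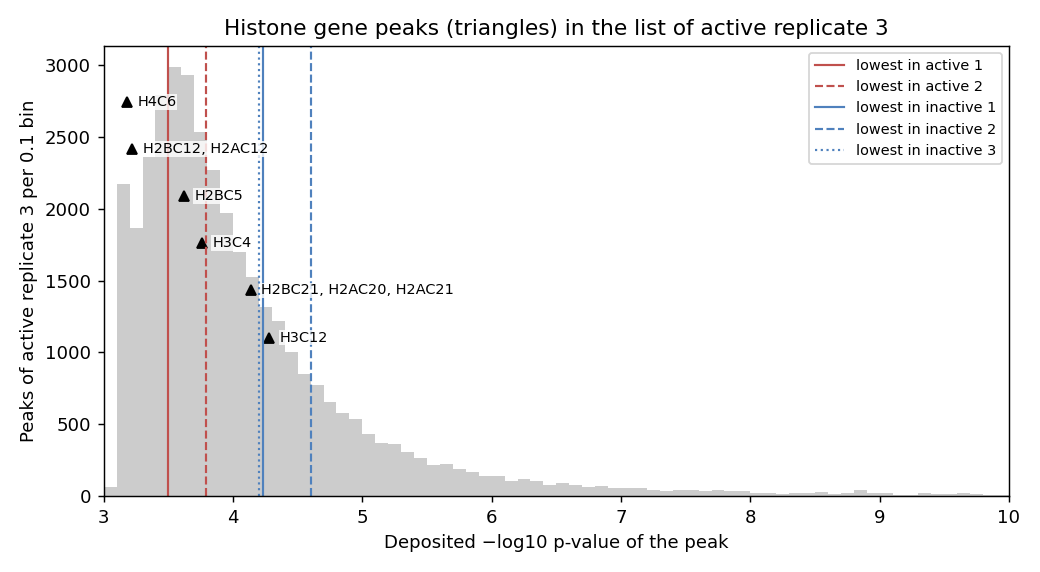
Number of peaks of active replicate 3 (vertical axis) in bins of 0.1 of the deposited −log10 p-value (horizontal axis, up to 10; 383 stronger peaks are not drawn), with a triangle at the value of each of the 6 histone gene peaks, whose height has no meaning. Vertical lines give the lowest value listed in the other 5 libraries (red, active; blue, inactive), and the H3C12 peak at 4.28 is the one triangle to the right of any inactive line.

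The distance to the nearest peak extends the comparison past the window. The median distance of the 70 histone genes to a peak was 208, 311 and 12.9 kb in active replicates 1, 2 and 3, and 1230, 1310 and 1230 kb in inactive replicates 1, 2 and 3. Over all protein-coding genes the medians were 23.4, 69.4 and 0 kb, and 237, 654 and 226 kb. The histone median was thus the longer one in every library. The upper quartile was 27.7 kb in active replicate 3, while the lower quartile was 1010, 1020 and 1000 kb in inactive replicates 1, 2 and 3. Since 55 genes lie in 1 region, neighbouring genes share the same nearest peak and these distances are not independent.

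In 5 libraries the closest approaches to a histone gene stayed outside the window. In active replicate 1 a peak 8.70 kb from H2BC17 was the nearest. In active replicate 2 and inactive replicate 1 it was a peak near RNF187, 36.6 and 36.7 kb from H2BC26 on chromosome 1. In inactive replicate 2 it was a peak near RRP1, 239 kb from H2BC12L, and in inactive replicate 3 a peak near WBP11, 12.7 kb from H4C16. The 4 closest peaks of the inactive lists and of active replicate 2 thus lay at genes outside the chromosome 6 region.

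**Figure D3:**
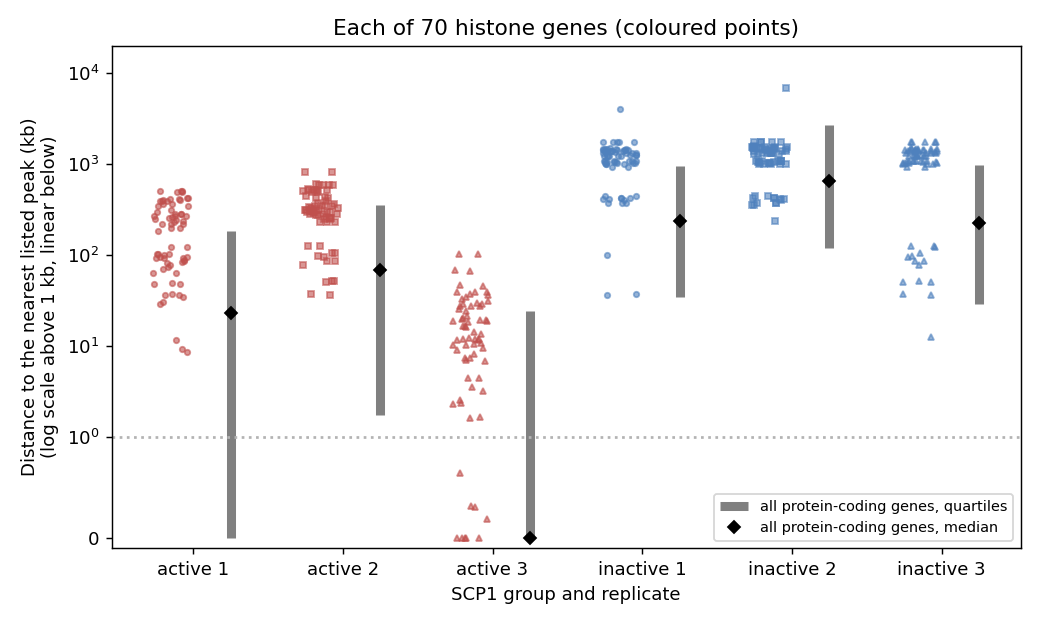
Distance from each of the 70 histone genes to the nearest listed pThr4 peak in each library (coloured points; vertical axis in kb, logarithmic above 1 kb and linear below), with the median (diamond) and quartiles (grey bar) of all protein-coding genes. Histone genes have a median of 12.9 kb in active replicate 3 and of 1230 kb or more in the inactive lists, and their median lies above that of all coding genes in every library.

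The main cluster on chromosome 6, from H2AC1 to H2BC17 (chr6:25726063-27893891, 2.17 Mb, 55 histone genes), held 4, 1 and 36 peaks in active replicates 1, 2 and 3 and none in any inactive list. Per Mb this was 1.85, 0.461 and 16.6 peaks, beside 4.17, 2.21 and 12.2 over the analysed genome. The region was thus sparser in peaks than the genome in active replicates 1 and 2, and denser in active replicate 3. The inactive lists held 0.824, 0.394 and 0.902 peaks per Mb over the genome, so that few peaks would fall in a region of this size in any case.

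Of these 36 peaks, 12 lay within the spans of the histone gene groups. When histone genes more than 500 kb apart were separated, the 34 genes from H2AC1 to H4C8 had 7 peaks within their span in active replicate 3, the 5 genes from H2BC11 to H2AC12 had 1, and the 16 genes from H2BC13 to H2BC17 had 4. Per Mb these were 12.5, 65.6 and 46.3 peaks over spans of 559, 15.2 and 86.4 kb, so that the spans were not sparser in peaks than the 12.2 per Mb of the genome in that list. The 11 genes on chromosome 1 from H2BC18 to H2AC21 had 2 within their span, and H2AC25 with H2BC26, H4C16 and H2BC12L had none. In the other 5 lists no peak lay within any of these spans. All peaks of active replicates 1 and 2 in the chromosome 6 region lay in its gap between H4C8 and H2BC11.

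Some other genes of the same region had peaks in more than 1 list. Of 19 other protein-coding genes there, HMGN4, a chromatin protein gene, had a peak beyond its end in all 3 active lists (fold enrichment 3.08, 3.33 and 3.53; −log10 p-value 3.75, 4.25 and 4.81) and in no inactive list. BTN2A1, of the butyrophilin family, had a peak in active replicates 1 and 3 with fold enrichments of 2.86 and 3.25, as did the zinc finger gene ZNF322 with 3.95 and 3.61. TRIM38, HFE and ZNF184 had a peak in active replicate 3 alone. The transfer RNA genes of the region, transcribed by RNA polymerase III, had a peak at 0, 0 and 1 of 98 in active replicates 1, 2 and 3 and at none in the inactive lists. Of 13 histone pseudogenes none had a peak in any list.

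**Figure D4:**
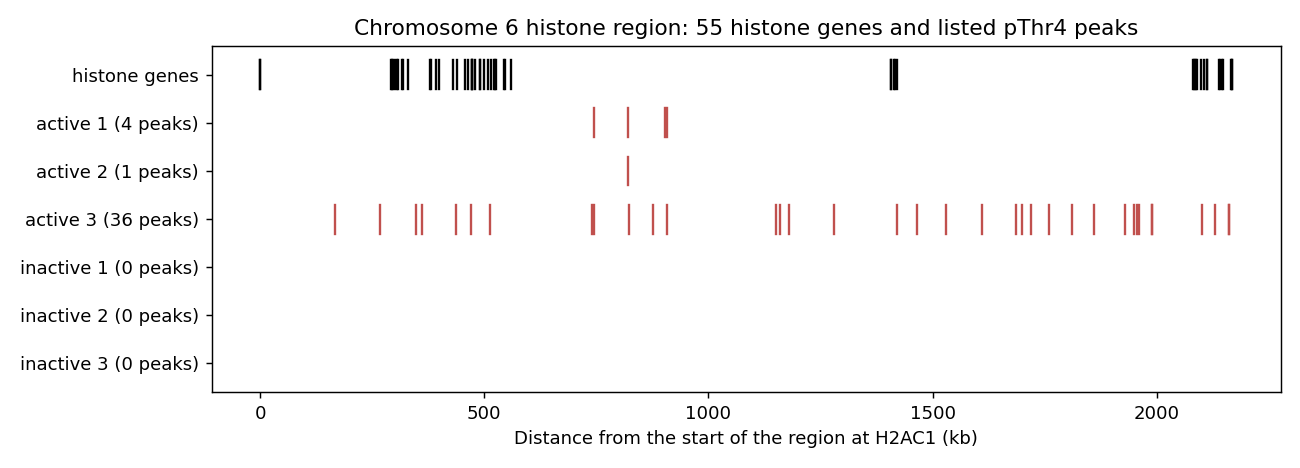
Map of the 2.17 Mb chromosome 6 histone region, with distance from its start at H2AC1 in kb on the horizontal axis, the 55 histone genes as black marks in the top row and the listed pThr4 peaks of each library as coloured marks below (red, active SCP1). Active replicates 1 and 2 have 4 and 1 peaks, all in the gap between histone gene groups, active replicate 3 has 36, and the inactive libraries have none.

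Several histone variants made outside S phase had peaks in both groups. Of 27 replication-independent histone genes, many of which give polyadenylated mRNAs, 2 (7.41%) had a peak in all 6 lists. A peak in at least 1 active list was found at 15 (55.6%), in at least 1 inactive list at 5 (18.5%), and in none at 12 (44.4%). For all protein-coding genes the shares were 4.86%, 60.2%, 15.6% and 39.6%, so this list as a whole lay near them. H2AZ1, encoding the variant H2A.Z, had a peak at its end in all 6 lists. Its strongest peak was 5.16-, 4.72- and 5.13-fold enriched in active and 4.24-, 4.31- and 4.68-fold enriched in inactive replicates 1, 2 and 3. H3-3B, encoding the variant H3.3, also had one at its end in all 6 lists. The strongest peak of H3-3B had 4.54, 4.56 and 4.44, and 4.46, 3.56 and 4.50. H2AX, the DNA damage variant whose mRNA can end in a stem-loop or in a poly(A) tail, had a peak in all 3 active lists (3.68, 3.95 and 4.33) and in inactive replicate 3 (3.58). These 3 were named for their high fold enrichment. H3-3A, the other H3.3 gene, had 2.95, 3.22 and 3.23 with active SCP1 and 3.33 and 3.22 in inactive replicates 1 and 3, within or near the 2.72 to 3.31 of the histone peaks, and was chosen after its values were seen. MACROH2A1 was the single gene of this list with a peak in every active and no inactive list (3.54, 4.14 and 3.51).

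Genes for factors of histone gene transcription and mRNA 3′-end processing were counted in the same way. Of 34 such genes, 27 (79.4%) had a peak in at least 1 active list, 12 (35.3%) in at least 1 inactive list, 2 (5.88%) in all 6 lists and 7 (20.6%) in none. Over all protein-coding genes these shares were 60.2%, 15.6%, 4.86% and 39.6%. The highest were WDR33, a polyadenylation factor, at 6.56-, 6.59- and 8.42-fold enrichment in active replicates 1, 2 and 3 and at 4.94- and 4.44-fold in inactive replicates 1 and 3, and E2F1, a cell cycle transcription factor, with 7.55, 6.98 and 5.58, and 4.71, 4.06 and 4.50. CPSF4, also a polyadenylation factor, had 4.99, 4.82 and 5.51, and 4.77, 3.84 and 4.69. All 3 had a peak at the gene end in each list that held one, and the start window of E2F1 also met a peak in active replicate 3. The fold enrichments are those of the strongest peak of the gene, which need not be the one at the end.

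A peak in every active and no inactive list was found at 4 of these 34 genes (11.8%), beside the 7.38% of all protein-coding genes. They were named after their values were seen: CPSF3, the histone endonuclease, with 3.78, 3.22 and 4.45, SYMPK, its scaffold, with 3.66, 3.59 and 3.30, POU2F1, the octamer factor, with 3.40, 3.58 and 3.24, and CASP8AP2, a histone locus body protein, with 2.85, 2.72 and 3.49. SLBP was also chosen after its values were seen. It had a peak at its end in all 3 active lists (strongest peak of the gene 4.11, 3.83 and 3.58) and in inactive replicate 1 (3.65). NPAT, the histone coactivator, and LSM10, of the U7 particle, had none in any list. These are values at the genes of the factors and not at histone genes.

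Cytosolic ribosomal protein genes, a family of highly expressed short genes with polyadenylated mRNAs, lay at the other extreme. Of 77 genes, 45 (58.4%) had a peak in all 6 lists, 65 (84.4%) had one in at least 1 inactive list and 1 (1.3%) in every active and no inactive list. Among all protein-coding genes the shares were 4.86%, 15.6% and 7.38%. At the end, 61, 59 and 65 genes had a peak in active replicates 1, 2 and 3, and 51, 44 and 53 in inactive replicates 1, 2 and 3. The highest fold enrichments were those of RPL26, at 10.5, 10.6 and 9.11 with active SCP1, then 10.9, 7.20 and 10.2 with inactive SCP1, RPL36 with 8.48, 7.79 and 8.92, and 6.70, 5.47 and 6.68, and RPL23A with 7.27, 7.66 and 8.32, and 7.47, 5.68 and 7.96. In each inactive list, where 57.1% to 68.8% of ribosomal protein gene ends were called, no histone gene was. Among all protein-coding genes with a strand, 3.97% to 8.12% of ends were called in these lists. The ribosomal protein genes were not matched to the histone genes in length or expression.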

How the data were processed

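pThr4 ChIP-seq libraries were grouped by the treatment named in the labels, with 3 biological replicates of active SCP1 and 3 of inactive SCP1. The submitters' processing notes name FastQC, cutadapt 4.6 and Bowtie2 2.5.2 and the build hg38. The peak caller and its control are not given in the sources used here, and the study whose text was read describes lysate treated with another phosphatase. Peaks were called per library. For each peak the authors deposited a fold enrichment (a ratio over background), its −log10 p-value and −log10 q-value, and a score that equals 10 times the −log10 q-value to within 1 and was not used.

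A gene had a peak where at least 1 bp of a listed peak overlapped the gene plus 1000 bp on either side. Start and end windows reached 1000 bp to each side. The fold enrichment of a comparison gene was that of its strongest peak in the gene window. Positions came from RefSeq (GRCh38.p14), on chromosomes 1 to 22 and X. Strand came from the RefSeq promoter table or, by gene name, from GENCODE release 44, and was found for 98.3% of protein-coding genes. Overlap counting was tested on simulated peaks (Python 3.11.15, numpy 2.4.6, pandas 2.3.3).

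The histone genes and comparison lists were chosen with earlier results of these data known. Genes were to be named with a peak in at least 5 of 6 lists, or in every active and no inactive list, and up to 3 per comparison list by the highest lowest active fold enrichment. The planned exact permutation test of fold enrichment, whose smallest p-value is 0.1, could not be run, because no histone gene had a peak in all 6 lists. Alternatives covered peak cutoffs, window sizes, left-out libraries and the replicate block. Depth is unknown, so no counting interval was given. The IgG control was not analysed here.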

Additional observations from a re-analysis of the deposited data

How the results depend on the processing

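The mean number of histone genes with a peak, active minus inactive SCP1, was 3 of 70. It was 0 when peaks needed a −log10 q-value of 2 or more, when each list kept its 1163 strongest peaks, when peaks needed a −log10 p-value of 6 or more, and where a peak had to cover at least 50% of the window. In the active lists, 12.9% to 29.9% of all protein-coding genes had a peak at the first of these settings and 7.35% to 8.15% at the second. The first 3 zeros were fixed beforehand by the strongest histone peak values: a −log10 q-value of 1.81, rank 10702 and a −log10 p-value of 4.28. The last follows from the printed positions of the 6 peaks. These zeros therefore add no support to the main count. The mean difference was 1.67 in the gene alone, 2.67 with 500 bp on either side and 6 with 5000 bp, a width chosen after seeing the data, where 18 histone genes had a peak in active replicate 3 and 0 in the other lists. At that width 64.5% of all protein-coding genes had a peak in active replicate 3, and 8.02% to 40.0% in the other lists. Leaving out 1 library gave 0 to 4.5, with 0 without active replicate 3, and replicates 1 and 2 alone gave 0 histone genes in either group. The number with a peak in every active and no inactive list was 0 under each of the 13 alternatives other than the block. Since active replicates 1 and 2 held no histone gene, only the 5000 bp window could have raised it. With the same-numbered libraries as a replicate block the mean difference was 3. Across 970 genes with a peak in all 6 lists, same-numbered libraries did not deviate together. The correlations were 0.03, 0.02 and 0.05 in replicates 1, 2 and 3, so the numbers were not taken as pairs. These genes were strong enough for every list, so the correlations do not cover list length. In both groups replicate 2 had the shortest list and replicate 3 the longest. The lists cannot show pThr4 below their own cutoffs.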
